A study of Mus musculus with 5 samples.

Results

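The regions described here are the 4046 peaks of histone H3 trimethylated at lysine 27 (H3K27me3) on autosomes of mouse epiblast stem cells that overlapped no peak of H3K4me1, H3K4me3 or H3K27ac. They were chosen by interval overlap from 11419 autosomal H3K27me3 peaks, out of 16975 on all chromosomes, as every peak that shared not a single base with any peak of the other 3 lists. They are called unmarked below, meaning only that no peak of these 3 marks was listed on them. An H3K27me3 peak that overlapped H3K4me3 is called bivalent. Unmarked peaks with a gap of 5 kb or less to a bivalent peak are called near (2143), and the remaining 1903 are called isolated. The overlaps chose the members, so their share and their distance from other marks are descriptions and carry no test.

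The study profiled the line EpiSC9, derived from the epiblast and kept on irradiated mouse embryonic fibroblasts in medium with 10 ng/ml of FGF2. Chromatin was crosslinked and precipitated with an antibody to one of H3K4me1, H3K4me3, H3K27ac or H3K27me3, with 1 library and 1 peak list per mark, and an input library was not analysed here. All groups share the same line and medium and differ in the antibody. The labels give no allele and no treatment beyond the medium. No replicate exists for any mark, so every value describes these libraries, and the 95% Wilson intervals reflect the number of peaks counted and no other error. Read depth is unknown. Genes at the peaks and the identity of the cells by marker genes were not examined, and the share of chromatin from feeder cells was not measured.

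H3K27me3 is written by Polycomb repressive complex 2 and read by Polycomb repressive complex 1, which together keep developmental regulators silent until a lineage needs them. In pluripotent cells the mark is best known at CpG-rich promoters, where it meets H3K4me3 in the bivalent state, and the complex can spread the mark outward from such sites by binding the modification it makes. H3K27ac occupies the same lysine and marks active promoters and enhancers, while H3K4me1 lies at enhancers and on the shoulders of promoters.

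Unmarked peaks made up 35.4% of autosomal H3K27me3 peaks (34.6 to 36.3) but a smaller part of the length. They covered 1.85 Mb, which was 18.2% of the autosomal H3K27me3 length, while bivalent peaks covered 71%. Among the other autosomal peaks, 4945 lay on H3K4me3 and H3K4me1 together, 447 on H3K4me3 alone and 1844 on H3K4me1 alone. Every combination with H3K27ac was rare, at 137 peaks in all, of which 97 carried all 3 other marks. The share of unmarked peaks varied little between chromosomes, from 31.8% on chromosome 11 to 38.5% on chromosome 18. It was 19.5% when a peak of another mark within 1 kb also counted as marking, and 22.2% among H3K27me3 peaks at or above the list's median score.

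Unmarked peaks were narrow and weak, and the isolated ones most of all. For isolated peaks the median width was 349 bp (interquartile range 315 to 378) and the median score 57.7 (52.6 to 64.8). The score is the authors' value for each peak, it starts at 50 in this list, and it is used here to rank peaks within the list. For near peaks these were 422 bp (355 to 576) and 73.3 (58 to 110.2). Bivalent peaks stood at 770 bp and 158.3. Peaks on H3K4me1 alone, at 435.5 bp and 72.1, had medians close to those of near unmarked peaks.

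**Figure D1:**
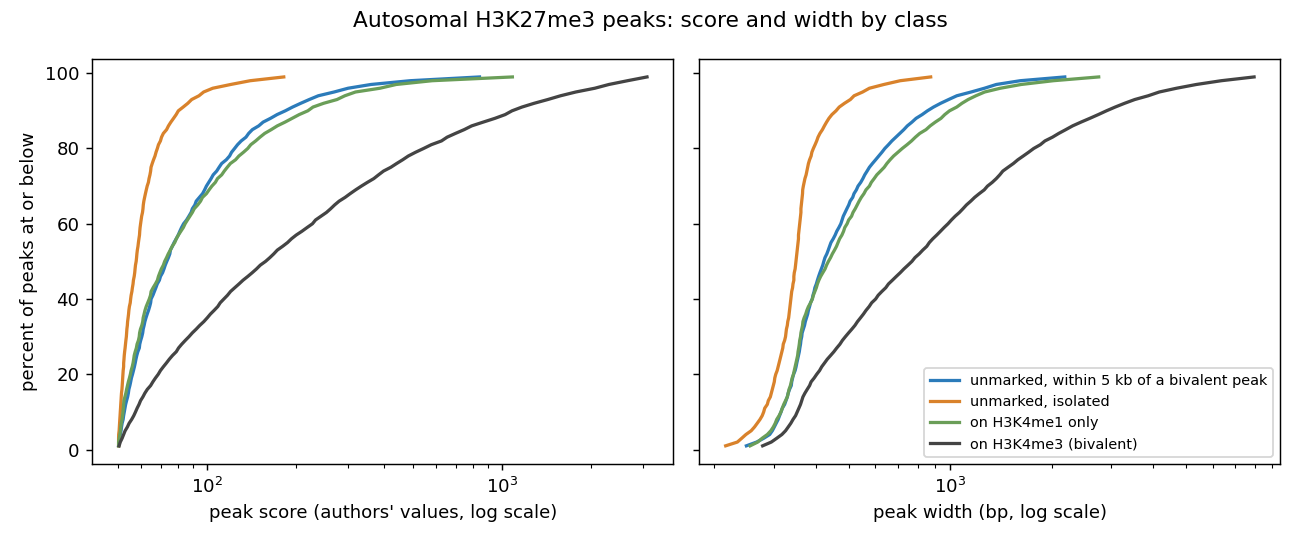
Cumulative percent of autosomal H3K27me3 peaks (vertical axis, percentiles 1 to 99) against the authors' peak score (left) and the peak width in bp (right), both on log axes, for 4 classes of peak. Isolated unmarked peaks rise first, with medians of 57.7 and 349 bp, and bivalent peaks reach the highest values. The curves of near unmarked peaks and of peaks on H3K4me1 alone run close together up to about the median. Above it peaks on H3K4me1 alone reach higher values, with 90th percentiles of 220 and 995 bp against 184.6 and 855.8 bp.

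The order of the 3 classes held on each autosome. The median score of near peaks was above that of isolated peaks on 19 of 19 autosomes, and that of bivalent peaks was above that of near peaks on 19 of 19. By chromosome, the median of isolated peaks lay between 55 and 59.1, that of near peaks between 60.9 and 80.6, and that of bivalent peaks between 116.8 and 207.2, so the ranges did not overlap. Median widths were also larger for near than for isolated peaks on 19 of 19 autosomes. Chromosomes of 1 library are not replicates of the experiment, and this spread is a description.

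Part of the difference in score went with width. Among peaks of 300 to 400 bp, the median score was 54.2 for 1219 isolated, 57.7 for 814 near and 57.7 for 950 bivalent peaks. In this width range the medians of near and bivalent peaks met, and that of isolated peaks was lower. Between 600 and 1000 bp the medians were 128.1 for 52 isolated, 136.8 for 349 near and 156.6 for 1139 bivalent peaks.

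The unmarked share dropped steadily with peak size. With autosomal peaks sorted by width into 10 bins of equal number, it was 62.8% in the narrowest bin (176 to 317 bp), 40.8% in bin 5 and 2.8% in the widest bin (1818 to 16250 bp). Isolated peaks accounted for most of this, with 43.1% of the narrowest bin and 1 peak in the widest. A wider interval meets more peaks of any kind, so width is part of what the overlap rule selects. By score the pattern was alike, from 57.8% of the lowest bin to 2.89% of the highest. Of the isolated peaks 61.1% scored under 60, against 29.5% of near and 13.3% of bivalent peaks. A score of 100 or more was reached by 86 isolated peaks (4.52%), 642 near peaks (30%) and 3587 bivalent peaks (65.2%).

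**Figure D2:**
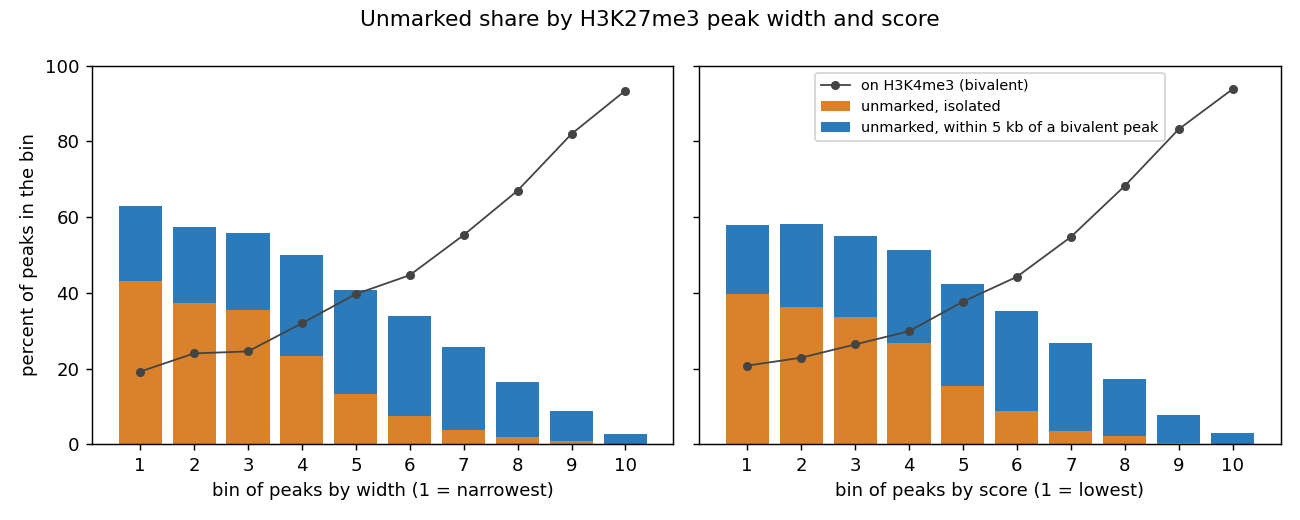
Percent of autosomal H3K27me3 peaks that were isolated unmarked (lower bar), near unmarked (upper bar) or bivalent (line) in each of 10 bins of equal number by width (left) or score (right). The bars shrink from 62.8% to 2.8% by width while the bivalent line climbs to 93.4%.

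Most near peaks lay well within the 5 kb limit that defines their class. Their median gap to the closest bivalent peak was 791 bp (interquartile range 217 to 1682), although any gap up to 5 kb would have placed them in the class. Counted over all unmarked peaks, 1222 lay at under 1 kb from a bivalent peak, 487 between 1 and 2 kb, 250 between 2 and 3 kb and 77 between 4 and 5 kb. Beyond the limit the count went on falling, to 49 between 5 and 6 kb and 20 between 9 and 10 kb. Strength fell over the same distance, with a median score of 79.6 in the first kb, 67.8 in the second and 63.1 between 4 and 5 kb. Counts of H3K27me3 peaks on H3K4me1 or H3K27ac but not on H3K4me3 also fell, from 870 in the first kb to 23 between 4 and 5 kb. They fell more steeply, so the unmarked share of both kinds together rose from 58.4% to 77% over that distance. It was 62.8% between 5 and 6 kb. The near share depended on how the list splits runs of H3K27me3: with peaks joined over gaps of up to 1 kb, 20.1% of unmarked regions were near, against 53% of unmarked peaks.

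**Figure D3:**
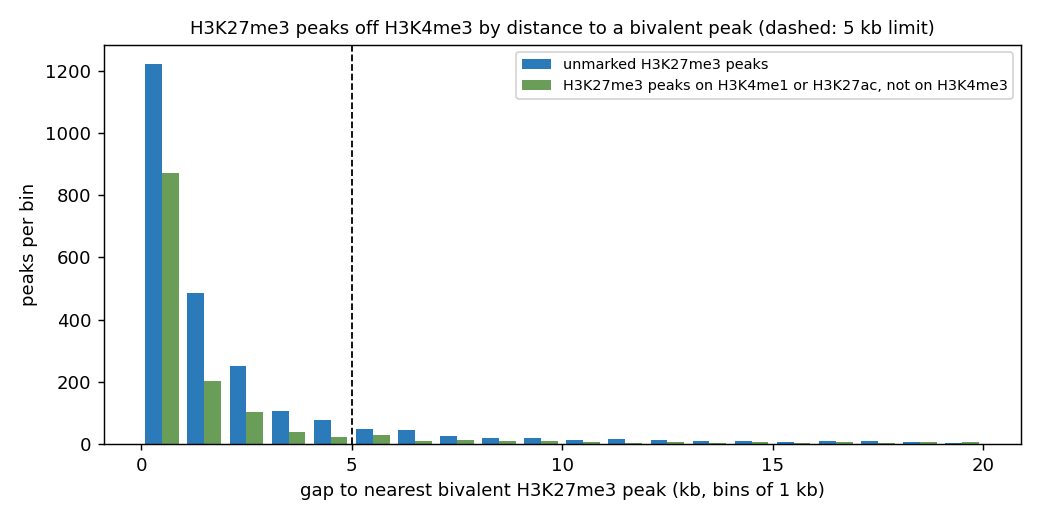
Number of H3K27me3 peaks per 1 kb bin of the gap to the nearest bivalent H3K27me3 peak, up to 20 kb, for unmarked peaks and for peaks on H3K4me1 or H3K27ac but not on H3K4me3. The dashed line is the 5 kb limit between near and isolated. Unmarked peaks drop from 1222 in the first bin to 77 in the last bin before the line, with no step at the line.

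The bivalent peaks beside near members were themselves broad and strong. A total of 1465 bivalent peaks (26.6% of 5500) were the closest one to at least 1 near member. Their median width was 1008 bp and their median score 230.4, while the other 4035 stood at 686 bp and 135. The near member scored lower than its closest bivalent peak in 1825 of 2143 cases (85.2%, 83.6 to 86.6) and was narrower in 84.7%. Across near members the rank correlation of their score with that of the bivalent neighbour was weak (Spearman's rho 0.18, n = 2143, with several members often sharing a neighbour). With the gap it was -0.30.

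Position within a domain went with strength. H3K27me3 peaks joined over gaps of up to 5 kb formed 4655 autosomal domains, of which 2613 held a bivalent peak. Near members that were the outermost peak of their domain numbered 1197 (55.9%) and had a median score of 66.4. The 946 that lay inside had a median of 87.7. The 248 with a bivalent peak within 5 kb on both sides were stronger still, at 111.2 and a median width of 534 bp. A domain of 2 peaks has no inside peak, so these medians mix position with the number of peaks in the domain. Of the bivalent domains 1110 (42.5%) held an unmarked peak. That share was 27.1% of the 1243 domains with 1 bivalent peak, 50% of the 1049 with 2 to 3, 76.3% of the 304 with 4 to 9, and 17 of 17 with 10 or more. Longer domains have more room for peaks of any class.

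The 5 strongest near members were long blocks of H3K27me3 that lay 19 to 123 bp from the nearest bivalent peak. On chromosome 11, the peak at 96040930 to 96045727 was 4798 bp wide, scored 2330.55 and lay 25 bp from a bivalent peak. The next by score, on chromosome 15 at 102824951 to 102827701, was 2751 bp wide, scored 1930.95 and had a gap of 39 bp. On chromosome 2, the peaks at 18607649 to 18610363 (score 1875.72) and at 74521313 to 74524429 (score 1745.89) had gaps of 123 and 97 bp. The fifth, on chromosome 5 at 140024495 to 140027491, scored 1527.7 with a gap of 19 bp. In these 5 cases the nearest H3K4me3 peak was 295 to 1519 bp away, so each is separated from H3K4me3 by less than its own width.

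A small number of domains held many near members. The 75 bivalent domains with 5 or more unmarked peaks contained 571 of them, 14.1% of all unmarked peaks. The domain on chromosome 15 at 102732520 to 102901305 had the most, with 24 near members and 1 isolated one among 52 H3K27me3 peaks. Its unmarked peaks covered 20.5 kb of 154 kb of H3K27me3 and had a median score of 97. Domains on chromosome 8 at 87287800 to 87339005 and on chromosome 4 at 115601225 to 115655163 each held 17 near members beside 8 bivalent peaks. On chromosome 13, the domain at 78303749 to 78351290 held 13 near members. None of these 4 domains contained an H3K27ac peak.

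The domain on chromosome 12 at 50472377 to 50505150 had the highest median score of unmarked peaks among the 5, at 135.3. It held 16 near members and 9 bivalent peaks, 7 H3K4me3 peaks, 1 H3K4me1 peak and 0 H3K27ac peaks. Unmarked peaks covered 15.9 kb of its 25.6 kb of H3K27me3. Its highest-scoring H3K27me3 peak was an unmarked one of 3622 bp with a score of 1029.03, next to another of 2972 bp with a score of 1024.32. Its bivalent peaks scored from 56.91 to 808.41, so both unmarked peaks were above all of them.

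Isolated peaks were mostly solitary. Of the 1903, 1484 (78%, 76.1 to 79.8) had no other H3K27me3 peak within 5 kb. A near peak cannot be solitary by definition, so the class rule sets part of this share. These 1484 were the only solitary ones among all 4046 unmarked peaks. Another 149 (7.83%) lay in domains of 2 or more peaks that were all unmarked, 146 (7.67%) shared a domain with a peak on H3K4me1 or H3K27ac, and 124 (6.52%) were linked to a bivalent peak only through intervening peaks. The solitary ones were the weakest, at 344 bp and 56.6 (medians of width and score). That score is close to the list's minimum of 50, and without a replicate it is unknown how many of these peaks would recur. The 124 linked ones had 393 bp and 64.7.

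The distance of isolated peaks from other marks was wide. Their median gap was 6.49 kb to H3K4me1, 18.2 kb to H3K4me3 and 47.5 kb to H3K27ac. For near peaks these medians were 0.885, 1.23 and 51.9 kb. The class rule places near peaks close to H3K4me3, and most bivalent peaks also lay on H3K4me1. It therefore sets part of the contrasts in the gaps to H3K4me3 and H3K4me1. The gap to H3K27ac, which the near limit does not use, differed least between the classes. Bivalent peaks had a median of 41 kb to H3K27ac. H3K27ac within 5 kb was found for 113 near peaks (5.27%) and 208 isolated peaks (10.9%, 9.61 to 12.4). Among autosomal H3K27me3 peaks with another mark it was found for 1008 of 7373 (13.7%), some of which lie on H3K27ac itself. A total of 954 isolated peaks (50.1%, 47.9 to 52.4) were more than 5 kb from all 3 other marks, and 156 (8.2%) more than 100 kb. These remote peaks were no wider or stronger than the rest, with medians of 343 bp and 55.8 beyond 100 kb and 358 bp and 58.9 within 5 kb of another mark.

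Isolation from bivalent peaks did not always mean isolation from promoter-like chromatin. H3K4me3 lay within 5 kb of 537 isolated peaks (28.2%, 26.2 to 30.3), and the remaining 71.8% were farther away. The share within 5 kb was 97.3% for near peaks, whose class requires a bivalent peak close by, and 10% for unmarked peaks on X. The H3K4me3 peaks nearest to these 537 were 466 distinct ones, and 459 of them carried no H3K27me3 themselves. The class rule nearly fixes that count, since a bivalent peak within 5 kb would have made the member near. Of the 459, 110 overlapped H3K27ac (24%, 20.3 to 28.1), against 58.1% of all 23281 autosomal H3K4me3 peaks without H3K27me3 (57.5 to 58.7). The share was lower beside isolated peaks on 19 of 19 autosomes, where it ranged from 6.25% to 38.5% against 53.8% to 61.9%. The shares beside isolated peaks are coarse, with 11 to 45 H3K4me3 peaks per autosome against 695 to 1953 in the larger set. The H3K4me3 peaks beside isolated members were of ordinary size, at medians of 1043 bp and a score of 1005.9, compared with 921 bp and 881 over the larger set. The rule bars H3K27ac on the H3K27me3 peak itself, not on its neighbour, but both lie close together, so the comparison is not fully independent of the rule and carries no test.

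Few isolated peaks were strong. The highest score, 663.02, belonged to a 2636 bp peak on chromosome 10 at 21875198 to 21877833, which was also the widest. It lay 222 bp from H3K4me3, 124.4 kb from H3K4me1 and 653.3 kb from the nearest bivalent peak. It was the centre of a domain from 21873028 to 21881084 with flanking unmarked peaks of 704 bp (score 193.95) and 601 bp (score 119.49). Between the central and the right-hand peak sat 3 small H3K4me3 peaks of 341, 289 and 246 bp, scoring 158.91, 85.66 and 225.9. This domain thus holds both marks side by side with no overlap in the lists.

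The next isolated peaks by score reached at most 323.24. They lay on chromosome 5 at 119325059 to 119326420 (1362 bp, score 323.24), chromosome 2 at 180306740 to 180307801 (1062 bp, score 296.01), chromosome 15 at 103010597 to 103011510 (914 bp, score 294.17) and chromosome 14 at 73499904 to 73501386 (1483 bp, score 287.1). Of these 4, those on chromosomes 5, 15 and 14 were within 1.03 kb of H3K4me3, and that on chromosome 2 was 9.59 kb away. The peak on chromosome 15 belonged to a domain with 1 bivalent peak, 7.43 kb from it. By width, the top 5 also included a solitary peak on chromosome 15 at 57909170 to 57910518 (1349 bp, score 247.08), 78 bp from H3K4me3 and 1.26 kb from H3K27ac.

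Domains built of unmarked peaks alone were short. There were 1543, of which 1484 were single peaks, 45 held 2 peaks, 9 held 3 and 5 held 4 or more. Their median covered length was 345 bp against 1631 bp for domains with a bivalent peak, and 20 of them covered 1 kb or more. The largest by covered length, on chromosome 7 at 51731489 to 51738179, held 8 peaks that covered 4.58 kb, with widths of 327 to 1025 bp and scores of 51.08 to 219.18. No H3K4me3, H3K4me1 or H3K27ac peak lay inside it, but H3K4me1 came within 0.187 kb of its left end, H3K27ac within 2.51 kb and H3K4me3 within 7.24 kb. The fourth by covered length, on chromosome 4 at 128018041 to 128023132, consisted of 4 peaks (2.95 kb covered) with scores of 94.2, 217.71, 86.55 and 68.05. It stood far from everything else, 127.1 kb from H3K4me1, 229.5 kb from H3K27ac and 235.2 kb from H3K4me3. The fifth comprised 6 peaks on chromosome 2 between 178376757 and 178385497 that covered 2.75 kb, 6.32 kb from H3K4me1 and 226.7 kb from H3K4me3.

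Chromosome 1 between 19 and 20 Mb held the densest group of isolated peaks, with 25 in 1 Mb; the next densest bin, on chromosome 2 from 180 to 181 Mb, held 13. The group formed 2 domains. The longer, at 19196929 to 19232649, held 28 H3K27me3 peaks, of which 16 were isolated, 10 near and 2 bivalent. The unmarked peaks covered 13 of its 14.2 kb of H3K27me3, with widths of 299 to 1125 bp and a median score of 74.2. The 2 bivalent peaks scored 127.21 and 51.75, while unmarked peaks reached 286.19, 218.45 and 202.02, so the strongest H3K27me3 here was off H3K4me3. The domain held 4 H3K4me3 peaks, and only 2 of these overlapped H3K27me3. The shorter domain, at 19088448 to 19100905, held 9 unmarked peaks with scores of 50.55 to 79.39 around 1 H3K4me3 peak of 645 bp. The nearest H3K4me1 peak was 1014 kb from the longer domain's unmarked peaks and 906 kb from the shorter one's, and the nearest H3K27ac peak 936.7 and 828.2 kb.

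**Figure D4:**
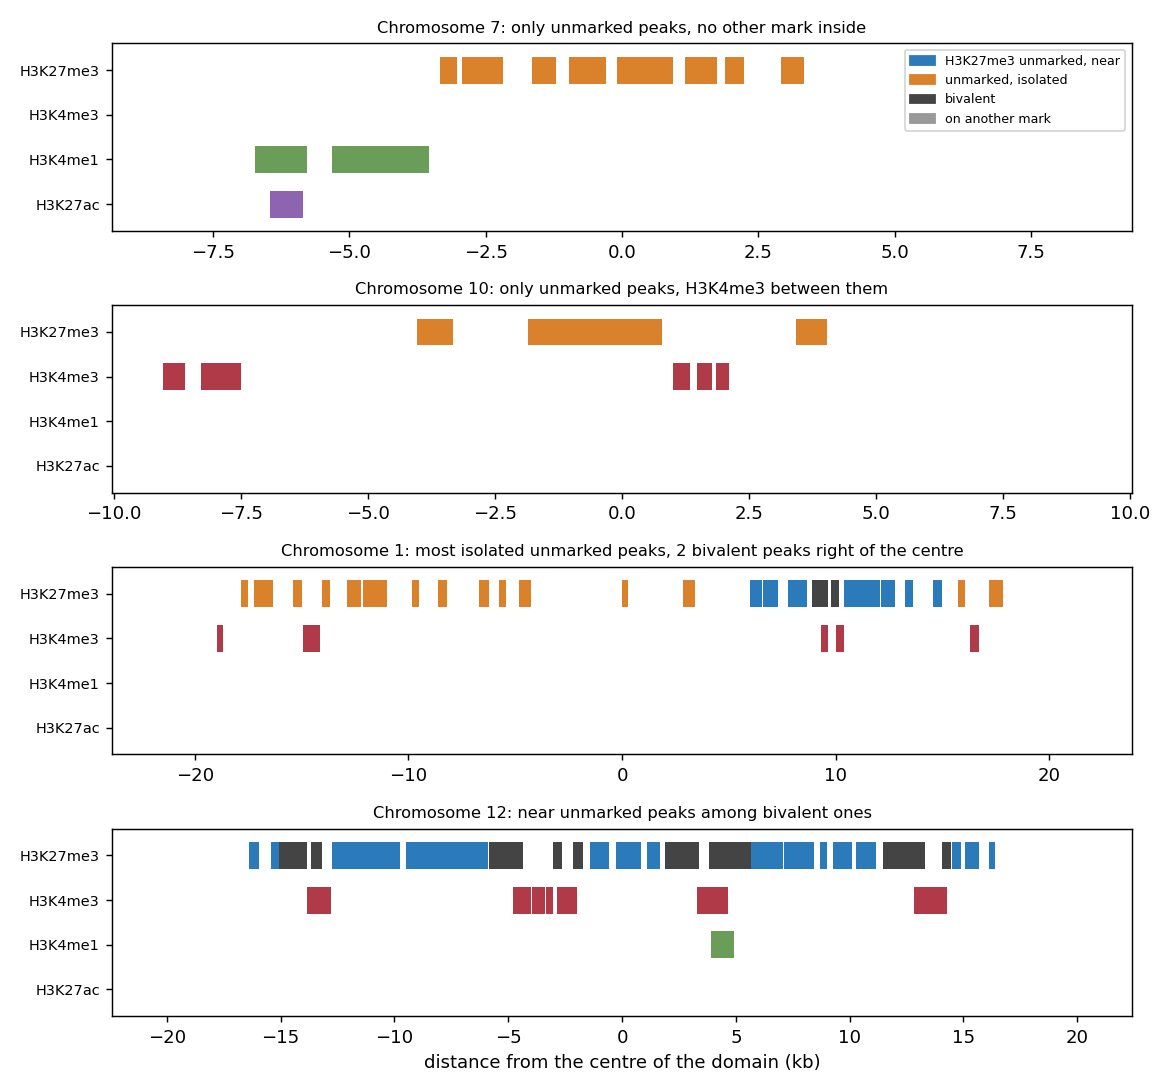
Peaks of the 4 marks (rows) in and around 4 domains on chromosomes 7, 10, 1 and 12, by distance in kb from the domain centre. H3K27me3 peaks are coloured by class. The chromosome 7 domain shows 8 isolated peaks with H3K4me1 and H3K27ac to one side only, the chromosome 10 domain shows 3 H3K4me3 peaks between unmarked peaks, and the chromosome 1 and 12 domains show unmarked peaks on both sides of bivalent ones.

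Isolated peaks were spread more evenly over the genome than near ones. Of 2482 autosomal bins of 1 Mb, 1099 held an isolated peak and 666 of these held exactly 1. Bins with 5 or more held 15% of the isolated peaks, whereas bins with 5 or more near peaks held 45.4% of the near peaks. Near peaks gather around bivalent ones by definition, so the class rule sets part of this contrast. By chromosome, near peaks made up 40.2% of unmarked peaks on chromosome 14 and 65.8% on chromosome 13, with a median of 50.7%, and outnumbered isolated peaks on 11 of 19 autosomes. Density ranged from 0.392 to 1.66 near peaks per Mb and from 0.54 to 1.14 isolated peaks per Mb. Across the 19 autosomes, near density rose with the density of bivalent peaks (Spearman's rho 0.90, Pearson's r 0.94), whose closeness defines the class. Isolated density had a rho of 0.67 and an r of 0.82 with it. All points come from 1 library and share the scale of chromosome length.

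**Figure D5:**
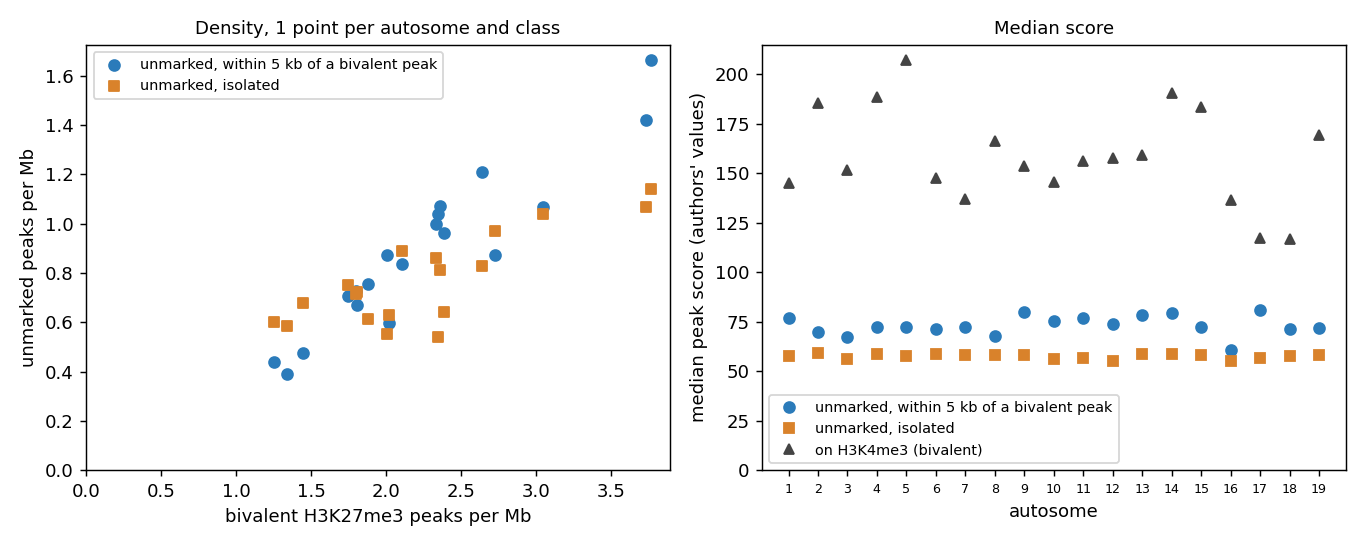
Left, near and isolated unmarked peaks per Mb against bivalent H3K27me3 peaks per Mb, 1 point per autosome and class. Right, median peak score on each autosome for near, isolated and bivalent peaks, where the 3 classes keep separate ranges (isolated 55 to 59.1, near 60.9 to 80.6, bivalent 116.8 to 207.2).

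Peaks at the limits of the rule showed how little separated some members from the rest. Of the unmarked peaks 312 (7.71%) had a gap of 100 bp or less to another mark and 3 abutted H3K4me1 without sharing a base. These 3 were on chromosome 15 at 82040619 to 82041150, chromosome 2 at 164797456 to 164797830 and chromosome 19 at 46216300 to 46216697. Among marked peaks 303 (4.11%) had an overlap of at most 100 bp, and peaks on chromosome 8 at 30328197 to 30328924 and chromosome 6 at 23192295 to 23193341 shared 1 bp with H3K4me3 and H3K4me1. At the 5 kb limit, the last near members had gaps of 4998, 4984 and 4975 bp and scores of 122.72, 127.6 and 71.08. The first isolated ones had gaps of 5031, 5032 and 5088 bp and scores of 60.71, 51.78 and 56.43. Over all unmarked peaks there was no such drop, with median scores of 63.15 between 4 and 5 kb and 62.98 between 5 and 6 kb.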

How the data were processed

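Per the file row names, the authors deposited peaks called by MACS, with 1 list per mark on mm9 and a score per peak. Bowtie 0.12.9, MACS 1.4 and Cufflinks are named in the submitters' processing notes without role or order. For the control, duplicate treatment and threshold of the calls, the sources used here give no information. The scale of the score is not stated, so it served to rank peaks within the H3K27me3 list, and H3K4me3 scores were compared only with each other. Read depth is unknown. How far depth or antibody set the length of each list, and with it the unmarked share, was not tested.

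Intervals overlapped when they shared at least 1 bp. Gaps were measured between peak edges, and domains joined H3K27me3 peaks over gaps of up to 5 kb. Densities use the last peak end of each chromosome. Coordinates are 1-based. Shares carry 95% Wilson intervals, and intervals of medians come from binomial order statistics. No test was made, since each mark has 1 library. Python 3.11.15 with numpy 2.4.6, pandas 2.3.3, scipy 1.17.1 and matplotlib 3.10.9 was used. The classes were tested on simulated intervals and recounted with bedtools 2.31.1, which gave 4046 and 2143 as well.

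The members, lists and classes were chosen with earlier results of these data known. Named regions are the top 5 isolated and near peaks by score, the 5 widest isolated peaks, the 5 largest domains of unmarked peaks alone, the 5 domains with most near members and 3 peaks at each side of each limit. The domains with most isolated members, the acetylation of H3K4me3 beside isolated peaks and the values by width range were chosen after the data were seen. An annotation of mm9 was not used here, so gene context, gene groups, base composition and printed sequences, which had been planned, were not run. Alternative settings changed the overlap, the score minimum, the joining of peaks and the near limit.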

Additional observations from a re-analysis of the deposited data

How the results depend on the processing

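Of 40 values under other settings, 5 stayed within the 95% interval of the reported value and 35 did not. The share of H3K27me3 peaks that were unmarked (35.4%) was 44% when another mark had to cover 50% of the shorter peak, 19.5% with marks within 1 kb counted, 43.7% with the other lists limited to peaks at or above their median score, and 22.2% with H3K27me3 limited so. In the same order, the near share (53%) was 48.3%, 39.5%, 38.3% and 73.6%, the share of isolated peaks in domains of unmarked peaks alone (85.8%) was 74.2%, 91.3%, 70.6% and 76.2%, and the share within 5 kb of H3K4me3 (64.8%) was 70.9%, 42.5%, 44.4% and 85.4%. With H3K27me3 peaks joined within 1 kb these 3 shares were 20.1%, 93.2% and 39.2%. A near limit of 1 kb gave 30.2% near and 57.8% of isolated peaks in unmarked domains, and the wider limit tried gave 57.9% and 91.1%. Isolated peaks had median widths of 344, 361 and 356 bp with marks within 1 kb counted, other lists limited and a 1 kb near limit, and median scores of 57.05, 60.6 and 59. Near peaks had 398, 435 and 457 bp and scores of 67.8, 75.2 and 79.7. Near peaks were wider and stronger than isolated ones under each of these settings. The cause of these shifts was not tested beyond the construction of each setting. No paired analysis was possible because each mark has 1 library. Depth is unknown, so peaks missed in a list cannot be told apart from absent marks.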

Other observations

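Outside the autosomes, 5280 of 5535 H3K27me3 peaks on X were unmarked (95.4%), and 5115 of these were isolated by the same rule. Their median width of 361 bp and median score of 59.8 lay close to the 349 bp and 57.7 of isolated autosomal peaks. They differed in grouping. Of the isolated peaks on X, 3117 (60.9%, 59.6 to 62.3) lay in domains of 2 or more peaks that were all unmarked, against 149 of 1903 (7.83%) on autosomes, and 33% were single on X against 78% on autosomes. X also held many more H3K27me3 peaks, 5535 against at most 1126 on an autosome (chromosome 2). Where peaks are more numerous, more of them fall within the 5 kb joining distance. How far this sets the contrast in grouping was not tested. All 21 H3K27me3 peaks on Y were unmarked, and the other 3 lists held no Y peaks.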
